A study of Mus musculus with 62 samples.

Results

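Liver RNA from female mice given the highest of 3 doses of a polychlorinated biphenyl (PCB) mixture, 6 mg/kg, was compared with liver RNA from female mice given the lowest, 0.1 mg/kg. The members were chosen by their labels alone, as every liver library labelled 6 (6 libraries) and every liver library labelled 0.1 (4 libraries). These are 10 of the 62 libraries of the series and 10 of its 20 liver libraries. The series followed oral exposure of C57BL/6 females to the MARBLES mixture, a blend of PCB congeners, at doses of 0.1, 1 and 6 mg/kg or with vehicle alone, and sequenced liver, prefrontal cortex and striatum. All 10 mice therefore had the strain, sex, route and mixture in common and differed by dose, and both groups were exposed groups. The length of the exposure, the age of the mice and the hour of collection are not given in the sources used here. Levels in the 4 vehicle and 6 libraries at 1 mg/kg are given beside some results as context, on the same scale. They also entered the scaling of the levels and 1 alternative fit of the same contrast, over all 20 liver libraries, where they set part of the spread. An earlier report of the series found a vehicle liver library that stood apart. The vehicle livers also differed from both compared groups in the summed level of clock genes, given below.

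PCBs are chlorinated compounds that persist in fat and liver. In hepatocytes, some congeners activate the constitutive androstane receptor CAR and the pregnane X receptor PXR, which raise transcription of cytochrome P450 enzymes such as those of the Cyp2b and Cyp3a families, while dioxin-like congeners act through the aryl hydrocarbon receptor on Cyp1a genes. A separate set of stress pathways watches protein folding: unfolded proteins in the cytosol release heat shock factor, which raises chaperones such as HSP70 and HSP110, and unfolded proteins in the endoplasmic reticulum (ER) start the unfolded protein response, which raises ER chaperones such as BiP, encoded by Hspa5. Liver makes most plasma proteins and expresses the ER chaperones strongly.

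No gene passed the threshold of an adjusted p of 0.05 in edgeR's quasi-likelihood test on the 10 libraries (0 of 12451 genes tested, 0.0%), with Benjamini-Hochberg adjustment over all of them. The smallest adjusted p was 0.113, for the HSP70 gene Hspa1b. At an unadjusted p of 0.05, 690 genes (5.54%) were higher at 6 mg/kg and 641 (5.15%) were lower. The 2 groups' libraries did not overlap for 160 genes that were higher at 6 mg/kg (1.29%) and 227 that were lower (1.82%). With all 20 liver libraries in 1 edgeR fit, so that the spread was estimated over 4 dose groups, the same contrast called 5 of 12968 genes (0.0386%). These were the chaperone genes Hspa1b, Hsph1 and Dnajb9, lower at 6 mg/kg, and Cyp2b10 and Fyb2, higher. DESeq2's Wald test on the 10 libraries called 102 of 12446 genes (0.82%), 56 higher and 46 lower. Since the count rests on the tool, values below are given with the adjusted p of the 10-library edgeR fit, in which no gene was called, and with that of DESeq2 where it called the gene.

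The cytosolic heat shock genes had lower means at 6 mg/kg in all 12 of 12 members tested. Their median log2 fold change was -0.80, against 0.03 over all genes tested. None passed in the 10-library fit, 8 of 12 were lower at an unadjusted p of 0.05 (5.15% of all genes) and 0 were higher. The summed level of the 12 genes ranged from 2909 to 5190 counts per 1000000 (CPM) in the 4 libraries at 0.1 mg/kg and from 2476 to 3273 CPM in the 6 libraries at 6 mg/kg. The vehicle libraries held 2763 to 3353 CPM. At 0.1 mg/kg, animal 23 lay within that range (2909 CPM) and animals 25, 28 and 29 lay above it. The sums at 6 mg/kg lay near it. Hspa8 alone averaged 2065 CPM of a mean sum of 4329 CPM at 0.1 mg/kg. Single members did not all follow the sum. Hspa1b averaged 23.4 CPM in vehicle livers and 4.18 CPM at 6 mg/kg, and Hsph1 averaged 38.6 and 21.6 CPM. The 20-library fit, which called 0.0386% of all genes, called 2 of the 12 lower (Hspa1b and Hsph1), and DESeq2, which called 0.82% of all genes, called 5 (Hspa1a, Hspa1b, Hsph1, Dnaja1 and Dnajb1).

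Hspa1b (Entrez 15511, chr17:34956429-34959238 in GRCm38) encodes an inducible cytosolic HSP70 that refolds proteins after stress. Its levels at 0.1 mg/kg were 13.9, 26.6, 99.9 and 35.5 CPM in animals 23, 25, 28 and 29. At 6 mg/kg they ran from 2.48 CPM to 8.15 CPM with a median of 3.61 CPM. Every library at 6 mg/kg was below every library at 0.1 mg/kg, and animal 28 was the highest by a wide margin. The log2 fold change was -3.39 (SE 0.483, edgeR adjusted p = 0.113), the 20-library edgeR fit gave an adjusted p of 0.00862 and DESeq2 one of 2.29e-08. Leaving out 1 library at a time kept the log2 fold change between -3.68 and -2.60, the latter without animal 28. The vehicle libraries held 7.73 to 30.1 CPM and those at 1 mg/kg 3.40 to 10.9 CPM. Its near-identical neighbour Hspa1a averaged 11.9 ± 14.1 CPM (SD, n = 4) at 0.1 mg/kg and 1.42 ± 1.00 CPM (SD, n = 6) at 6 mg/kg, with overlapping libraries. Reads from the copies may be split between them in an unknown way, so the level of each alone is uncertain.

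Hsph1 (Entrez 15505, chr5:149616843-149636498), the HSP110 chaperone that exchanges nucleotide on HSP70, had 29.02, 51.3, 106.4 and 84.9 CPM at 0.1 mg/kg. The lowest, median and highest levels at 6 mg/kg were 17.1, 20.7 and 31.8 CPM. The groups overlapped by 1 library on each side, animal 23 at 0.1 mg/kg and animal 55 at 6 mg/kg. The log2 fold change was -1.64 (SE 0.298, edgeR adjusted p = 0.252), and the 20-library edgeR fit gave an adjusted p of 0.0395 and DESeq2 one of 0.000852. Without animal 23, the 10-library design called Hspa1b, Hsph1 and Fyb2. Chordc1 (Entrez 66917, chr9:18292267-18314000), a co-chaperone of HSP90 that stood among the 8 genes with the smallest p in the lower direction, had 32.4, 50.8, 63.6 and 73.9 CPM at 0.1 mg/kg. The 6 mg/kg libraries had 17.8 to 32.1 CPM with a median of 27.6 CPM, and the groups did not overlap, though the highest library at 6 mg/kg lay just under animal 23. Its log2 fold change was -1.06 (SE 0.228, edgeR adjusted p = 0.272, DESeq2 adjusted p = 0.0126).

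Hspb1, the small heat shock protein HSP27, was at 20.8 to 148 CPM against 24.3 to 52.7 CPM, overlapping (log2 fold change -1.06, SE 0.395, edgeR adjusted p = 0.414). Dnaja1, an HSP40 partner of HSP70, was, like Hspb1, singled out after its values were seen, since it was the only other member whose groups did not overlap, at 232 to 357 CPM against 151 to 225 CPM. Its log2 fold change was -0.74 (SE 0.184, edgeR adjusted p = 0.326, DESeq2 adjusted p = 0.0147). Hspa8, the constitutive HSC70, had 1442, 2345, 2069 and 2405 CPM at 0.1 mg/kg and 921 to 1943 CPM with a median of 1562 CPM at 6 mg/kg. These overlapped, and the log2 fold change, -0.52 with an SE of 0.251 (edgeR adjusted p = 0.480), did not reach the unadjusted threshold either. Hsp90aa1, the inducible HSP90, averaged 260.4 ± 95.2 CPM against 142.7 ± 24.5 CPM (SD, n = 4 and 6), and Dnajb1, another HSP40, averaged 36.0 ± 12.5 CPM against 18.8 ± 2.70 CPM (SD, n = 4 and 6). In Hsp90aa1, Hsph1, Hspa1b and Dnajb1, the SD in CPM was larger at 0.1 mg/kg than at 6 mg/kg, as were the means.

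**Figure D1:**
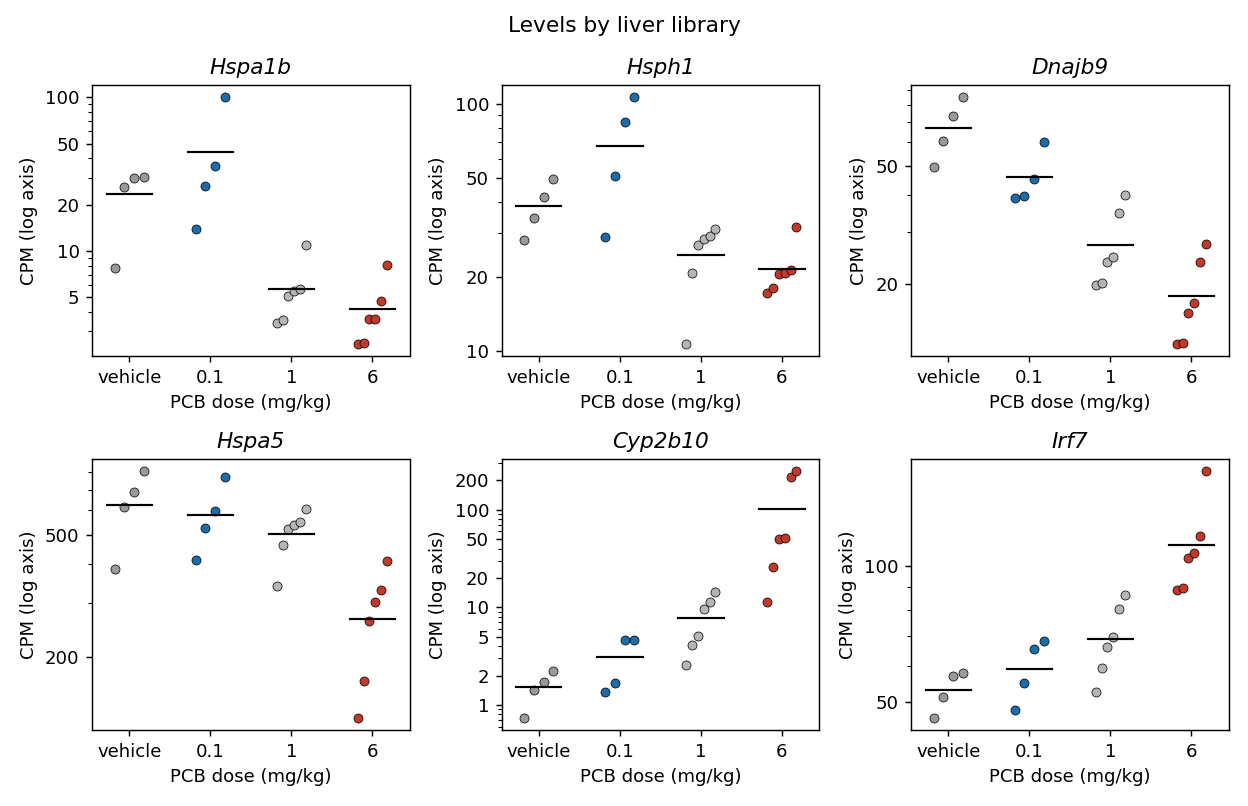
Levels of 6 genes in each liver library, in CPM on a log axis, by dose (vehicle, 0.1, 1 and 6 mg/kg), with 1 point per library and a bar at each group's mean. Hspa1b, Hsph1, Dnajb9 and Hspa5 sit lower at 6 than at 0.1 mg/kg and Cyp2b10 and Irf7 sit higher, and of the 6 genes only Hsph1 overlaps between these 2 groups.

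The ER chaperones and other genes of the unfolded protein response had fitted fold changes below 0 in 24 of 28 members tested, with a median log2 fold change of -0.54. Of the 28, 16 were lower at an unadjusted p of 0.05 (5.15% of all genes) and 0 were higher (5.54%), and none passed after adjustment. The summed level of the 29 listed genes was 3807 to 5719 CPM at 0.1 mg/kg and 2116 to 3819 CPM at 6 mg/kg, so that the groups met only at their edges. In the vehicle libraries the sum was 3882 to 5578 CPM, close to that at 0.1 mg/kg. The 20-library fit called 1 member lower (Dnajb9) and DESeq2 called 5 (Dnajb9, Hspa5, Manf, Creld2 and Sdf2l1), beside 0.0386% and 0.82% of all genes. Without animal 28 at 0.1 mg/kg, 9 members in place of 16 were lower at the unadjusted threshold, where the share over all genes was 3.48% in place of 5.15%.

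Hspa5 (Entrez 14828, chr2:34772090-34776529) encodes BiP, the main HSP70 of the ER lumen. Its levels at 0.1 mg/kg were 413.6, 596, 772 and 525.6 CPM, and at 6 mg/kg they ran from 127 to 411.3 CPM with a median of 283 CPM. The groups did not overlap, but the highest library at 6 mg/kg came close to the lowest at 0.1 mg/kg. The log2 fold change was -1.11 (SE 0.295, edgeR adjusted p = 0.334, DESeq2 adjusted p = 0.0460). Dnajb9 (Entrez 27362, chr12:44205897-44210068), an ER co-chaperone of BiP, had 45.1, 39.7, 60.1 and 38.9 CPM at 0.1 mg/kg and 12.5 to 27.3 CPM with a median of 16.6 CPM at 6 mg/kg. All 6 libraries at 6 mg/kg were well below all 4 at 0.1 mg/kg. The log2 fold change was -1.32 (SE 0.229, edgeR adjusted p = 0.252), the 20-library edgeR fit gave an adjusted p of 0.0395 and DESeq2 one of 0.000794. In vehicle livers Dnajb9 stood at 49.6 to 85.0 CPM and at 1 mg/kg at 19.9 to 39.9 CPM.

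Of the remaining ER members, named here after their values were seen, Sdf2l1, Creld2, Hyou1 and Manf had log2 fold changes of -1.51, -1.25, -1.22 and -1.10. Manf, a secreted factor retained in the ER, was at 100.4 to 160.1 CPM against 36.7 to 86.1 CPM, without overlap (SE 0.241, edgeR adjusted p = 0.272, DESeq2 adjusted p = 0.0113). Creld2 averaged 47.2 ± 17.4 CPM against 19.8 ± 5.73 CPM (SD, n = 4 and 6). Hspa13 and Ern1, the latter encoding the stress sensor IRE1, completed the 5 members without overlap, beside 1.82% of all genes in that direction. The 4 members with positive fold changes were Trib3 (0.64), Atf4 (0.26), Ppp1r15a (0.20) and Ddit3 (0.01). Atf4 was at 64.8 to 137 CPM against 91.8 to 149 CPM, and none of the 4 reached the unadjusted threshold. Sec23b (Entrez 27054, chr2:144556229-144590753), a coat protein of the vesicles that leave the ER, was on no list and had the third smallest p among genes lower at 6 mg/kg. It had 43.1, 37.6, 49.4 and 33.5 CPM at 0.1 mg/kg and 18.2 to 26.2 CPM with a median of 21.8 CPM at 6 mg/kg, without overlap (log2 fold change -0.89, SE 0.162, edgeR adjusted p = 0.252, DESeq2 adjusted p = 0.000852).

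**Figure D2:**
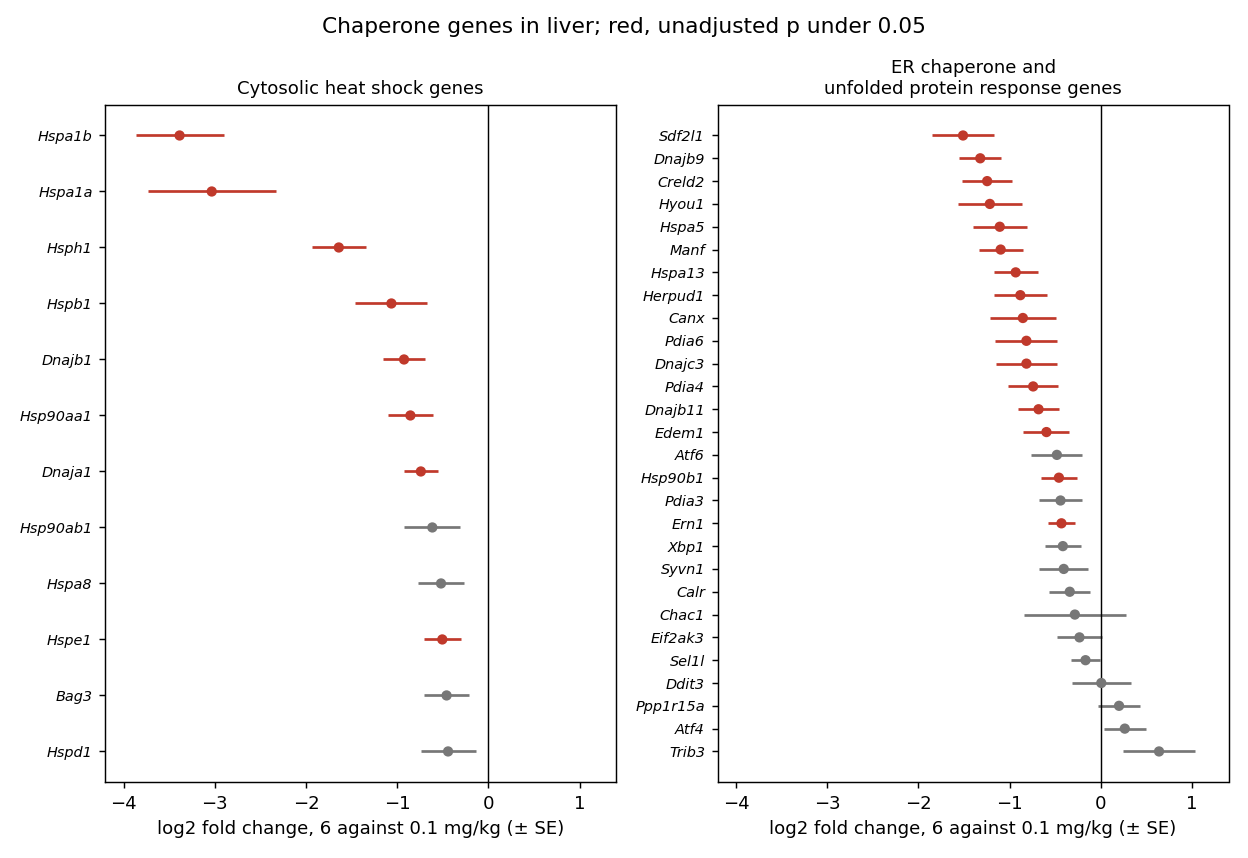
Log2 fold change of liver at 6 against 0.1 mg/kg, with its standard error as a bar, for 12 cytosolic heat shock and 28 ER genes, with points in red where the unadjusted p was under 0.05. All 12 heat shock points and 24 of the 28 ER points lie below 0, with Hspa1b farthest at -3.39.

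The promoters of these genes are shown because known binding sequences of the 2 folding pathways can be read in them. Windows ran from 250 bases before to 50 bases after the start given by RefSeq on GRCm38.p6, and 32851 such windows were searched on both strands. The heat shock element was searched as 3 alternating units, GAANNTTCNNGAA or TTCNNGAANNTTC, and as a pair of units, GAANNTTC or TTCNNGAA, which every match of 3 units also contains. The ER stress response element was searched as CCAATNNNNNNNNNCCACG. Of all windows, 0.603% held 3 heat shock units, 15.1% held a pair and 0.119% held the ER stress element. Of the 12712 windows of genes tested in liver, the shares were 0.519%, 12% and 0.173%. These shares are per window, while the list counts below are per gene, with a match in any of its windows. Of the 12 heat shock genes, 9 had a window. A pair was found in 8 of these 9 and 3 units in 3 (Hsph1, Hspe1 and Hspd1). Hspe1 and Hspd1 are divergent neighbours, and the Hspd1 window with the matches covers nearly the same bases as that of Hspe1, while the other Hspd1 window held none. Of the 28 ER genes, 24 had a window, with the ER stress element in 8 (Hspa5, Hsp90b1, Dnajc3, Pdia6, Calr, Canx, Creld2 and Syvn1), 3 heat shock units in 0 and a pair in 1 (Eif2ak3). A match is a run of letters and not a measured binding site. The windows of Hspa1a and Hspa1b differed at 4 of 300 bases (98.7% identical). Heat shock pairs and 3-unit elements are in capitals in the first 3 sequences below and the ER stress element in the last 2, all written 5′ to 3′ along the gene. The windows are chr17:34959189-34959488 (minus strand) for Hspa1b, chr5:149636287-149636586 (minus strand) for Hsph1, chr1:55087898-55088197 (plus strand) for Hspe1, chr2:34771840-34772139 (plus strand) for Hspa5 and chr15:88819396-88819695 (plus strand) for Creld2.
Hspa1b: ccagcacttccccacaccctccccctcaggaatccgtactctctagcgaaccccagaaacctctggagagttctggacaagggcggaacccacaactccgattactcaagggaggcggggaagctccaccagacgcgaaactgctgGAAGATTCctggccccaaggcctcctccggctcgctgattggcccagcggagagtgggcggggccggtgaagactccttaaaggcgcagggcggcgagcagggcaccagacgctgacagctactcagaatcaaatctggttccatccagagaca
Hsph1: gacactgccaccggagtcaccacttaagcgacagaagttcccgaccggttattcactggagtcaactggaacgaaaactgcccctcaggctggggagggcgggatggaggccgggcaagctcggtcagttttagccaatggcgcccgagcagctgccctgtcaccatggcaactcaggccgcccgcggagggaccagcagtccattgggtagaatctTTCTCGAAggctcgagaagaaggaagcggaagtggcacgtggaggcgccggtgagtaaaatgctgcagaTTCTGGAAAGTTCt
Hspe1: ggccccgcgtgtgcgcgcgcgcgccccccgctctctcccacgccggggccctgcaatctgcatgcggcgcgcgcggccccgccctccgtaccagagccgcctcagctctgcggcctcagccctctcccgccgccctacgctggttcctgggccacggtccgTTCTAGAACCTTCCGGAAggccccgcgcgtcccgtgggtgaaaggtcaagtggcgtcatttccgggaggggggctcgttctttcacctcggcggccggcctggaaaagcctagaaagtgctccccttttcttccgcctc
Hspa5: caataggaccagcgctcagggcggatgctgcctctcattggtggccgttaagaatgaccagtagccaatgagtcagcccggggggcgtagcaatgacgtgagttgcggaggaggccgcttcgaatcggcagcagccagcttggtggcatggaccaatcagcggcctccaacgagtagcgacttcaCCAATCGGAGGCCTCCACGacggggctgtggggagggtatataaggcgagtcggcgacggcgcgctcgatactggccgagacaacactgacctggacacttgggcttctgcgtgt
Creld2: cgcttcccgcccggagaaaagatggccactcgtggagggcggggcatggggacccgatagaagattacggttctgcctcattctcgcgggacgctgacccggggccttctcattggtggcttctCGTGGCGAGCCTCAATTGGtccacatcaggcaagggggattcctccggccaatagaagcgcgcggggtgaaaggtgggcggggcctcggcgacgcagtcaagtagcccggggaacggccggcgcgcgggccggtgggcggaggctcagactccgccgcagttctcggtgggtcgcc
Hspa1b thus held 1 pair, Hsph1 held 1 match of 3 units beside a separate pair, and Hspe1 held overlapping matches. The element of Hspa5 read along the gene and that of Creld2 on the opposite strand.

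Several properties of the libraries moved with dose and stand beside these differences. Total counts were 9031685 to 10123644 at 0.1 mg/kg and 7381179 to 10114871 at 6 mg/kg, lower on average at 6 mg/kg (two-sided exact permutation p = 0.0476 over 210 divisions). The part of depth in the differences was not tested. Each library's genes also leaned by GC content. The correlation across genes of a library's deviation from the mean log2 level with GC content was -0.224 to -0.156 at 0.1 mg/kg and -0.047 to 0.258 at 6 mg/kg. These ranges did not overlap (exact permutation p = 0.00476, the smallest that 210 divisions can give). Across 12048 genes the log2 fold change correlated with GC content (Spearman 0.340) and hardly with transcript length (0.036). With an offset for GC content and length, 554 of 12048 genes were higher at an unadjusted p of 0.05 (4.6%) and 444 lower (3.69%), and 9 of the 12 heat shock and 15 of the 28 ER genes were among the lower ones. Hspa1b had a log2 fold change of -3.60 and Dnajb9 one of -1.13 in that fit. The first principal component held 44.2% of the variance and did not separate the doses (exact permutation p = 0.281). Animals 52 and 58 were at its positive end and animals 28, 56 and 55 at its negative end. Without animals 52 and 58, an alternative chosen after seeing the data, 7 heat shock and 11 ER genes were lower at the unadjusted threshold (3.46% of all genes) and no gene passed adjustment.

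**Figure D3:**
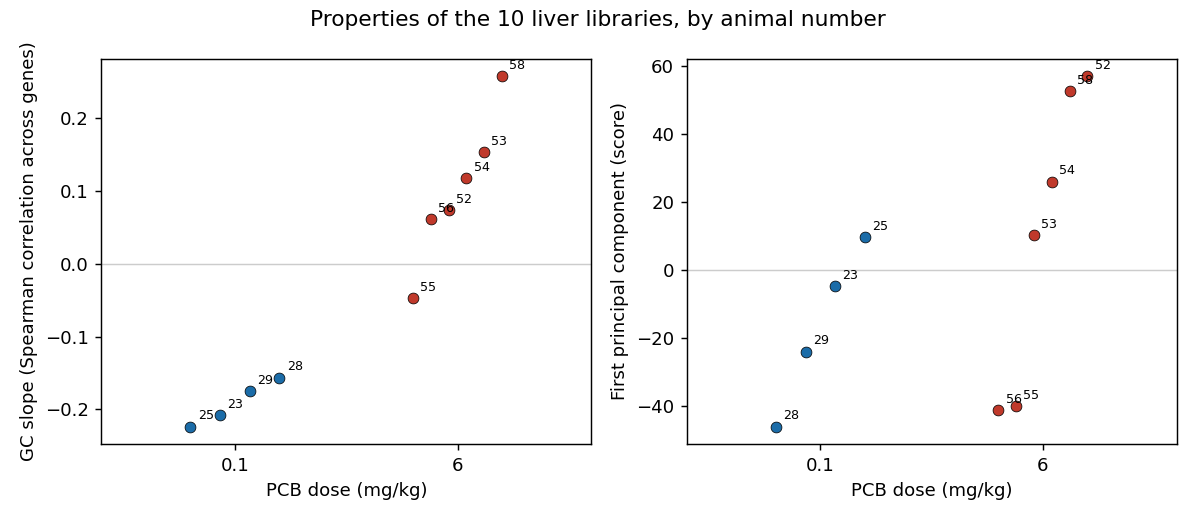
GC slope (left, correlation across genes) and first principal component score (right) of each of the 10 liver libraries, with animal numbers, the libraries of each dose sorted by value. The GC slope is -0.224 to -0.156 in the 4 libraries at 0.1 mg/kg and -0.047 to 0.258 in the 6 at 6 mg/kg, while the component scores of the 2 doses overlap.

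The summed levels of markers of each cell type overlapped between the doses. The summed level of 10 hepatocyte markers was 106819 to 127119 CPM at 0.1 mg/kg and 82725 to 137880 CPM at 6 mg/kg, lowest in animal 52, and 0 of 10 differed at the unadjusted threshold. The counts below are of markers past that threshold, where 5.54% of all genes were higher and 5.15% lower. The 10 Kupffer cell markers summed to 356 to 492.9 CPM against 263 to 544 CPM (1 of 10 tested lower, Marco), and the 8 markers of sinusoidal endothelium to 236 to 333 CPM against 221 to 279.5 CPM (2 of 8 tested lower, Clec4g and Pecam1). Stellate cell markers summed to 319 to 394 CPM against 199.7 to 461 CPM (1 of 10 tested lower, Rgs5), cholangiocyte markers to 52.3 to 73.3 CPM against 49.0 to 132 CPM, and the 8 T and NK cell markers to 6.18 to 10.7 CPM against 5.68 to 10.8 CPM. B cell markers summed to 3.57 to 8.38 CPM against 5.13 to 17.3 CPM (2 of 4 tested higher), with Ighm not listed, and neutrophil markers to 0.704 to 6.56 CPM against 1.36 to 12.0 CPM. Red cell markers summed to 44.0 to 472 CPM against 68.5 to 227 CPM. The 10 brain markers summed to 9.96 to 49.3 CPM against 10.8 to 89.4 CPM. Mesothelial markers, from the surface of the organ, were at 3.62 to 9.11 CPM against 1.09 to 4.29 CPM, and Upk3b, the 1 of 2 tested that was lower, did not overlap and was called by DESeq2 (adjusted p = 0.0267). Of 9 pancreatic acinar markers, 7 were not listed, and the other 2 summed to 13.1 to 25.02 CPM against 6.09 to 17.6 CPM (1 of 2 tested lower, Cela1). Of 6 adipocyte markers, 4 were not listed, Adipoq and Plin1 among them. Of the 13 marker sums, the mesothelial one (5.86 ± 2.48 against 2.40 ± 1.28 CPM, SD, n = 4 and 6) had a two-sided exact permutation p of 0.0143 (0.186 adjusted over the 13) and the acinar one (18.9 ± 5.27 against 11.0 ± 4.41 CPM) one of 0.0381 (0.248 adjusted). The part of these cell types in the differences between the doses was not tested. In bulk tissue, fewer cells of a type and less RNA per cell cannot be told apart.

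Cyp2b10 (Entrez 13088, chr7:25897658-25926624), the cytochrome most used as a readout of CAR, had the largest fitted fold change of all genes tested. At 0.1 mg/kg it had 1.67, 1.36, 4.65 and 4.63 CPM, from 13 to 47 counts per library. At 6 mg/kg its levels were 11.2 to 249 CPM with a median of 50.7 CPM, from 109 to 2278 counts. Every library at 6 mg/kg was above every library at 0.1 mg/kg, and within the 6 mg/kg group animals 55 and 56 stood at 249 and 215 CPM and animal 52 at 11.2 CPM. The log2 fold change was 5.01 (SE 0.913, edgeR adjusted p = 0.252), the 20-library edgeR fit gave an adjusted p of 0.0395 and DESeq2 one of 2.36e-05. Vehicle libraries held 0.738 to 2.25 CPM and those at 1 mg/kg 2.54 to 14.2 CPM. The Cyp2b, Cyp2c and Cyp3a families contain close paralogs between which reads can be misassigned, so single members are uncertain to that extent.

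The CAR targets, Cyp2b10 among them, did not move as one. Of 25 tested, 5 were higher and 1 was lower at the unadjusted threshold (5.54% and 5.15% of all genes), with a median log2 fold change of 0.37, and the groups did not overlap in 2 higher (Cyp2b10 and Ces2a) and 1 lower (Cyp2c38), beside 1.29% and 1.82% of all genes. Without animal 28 the count higher was 3, beside 3.95% of all genes, and with 1 surrogate variable it was 8, beside 6.59%. Ces2a (Entrez 102022), a carboxylesterase that belongs to the CAR and PXR lists, had 265, 278, 203 and 219 CPM at 0.1 mg/kg and 309.9 to 417 CPM with a median of 399.6 CPM at 6 mg/kg. Its log2 fold change was 0.68 (SE 0.173, edgeR adjusted p = 0.334), and DESeq2 called it with an adjusted p of 0.00259. Cyp2c55 had 1.56, 1.78, 3.27 and 1.01 CPM at 0.1 mg/kg and ran from 0 to 14.5 CPM at 6 mg/kg, so that the groups overlapped (log2 fold change 1.48, SE 0.824, edgeR adjusted p = 0.526, and 0.86 on the log2 scale without animal 56). Cyp2c38 averaged 173 ± 50.2 CPM against 98.0 ± 24.6 CPM (SD, n = 4 and 6). Abcc3, an efflux transporter of conjugates, and Cyp2c50 and Cyp2c54 made up the rest of the 5 higher.

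Of 11 PXR targets, 4 were higher and 1 was lower at the unadjusted threshold, against 5.54% and 5.15% over all genes. Cyp3a59 (Entrez 100041449, chr5:146079208-146114978) was the member with the smallest p and 1 of the 8 leading genes in the higher direction. It had 35.2, 30.7, 21.8 and 30.9 CPM at 0.1 mg/kg and 45.8 to 83.3 CPM with a median of 55.1 CPM at 6 mg/kg, with no overlap (log2 fold change 1.05, SE 0.217, edgeR adjusted p = 0.262, DESeq2 adjusted p = 0.00312). Cyp3a11, the main inducible enzyme of the family, was at 1413, 1256, 1334 and 2010.0 CPM against 905 to 1724 CPM with a median of 1533 CPM. Its log2 fold change was -0.12 (SE 0.237), and its sign changed between settings. Nr1i2, which encodes PXR itself, averaged 69.5 ± 8.34 CPM against 105.7 ± 27.4 CPM (SD, n = 4 and 6). Cyp3a16, the lower member, averaged 139 ± 31.9 CPM against 60.7 ± 38.9 CPM (SD, n = 4 and 6).

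Of 8 targets of the aryl hydrocarbon receptor tested, 1 was higher at the unadjusted threshold (5.54% of all genes) and 0 were lower. This was Cyp1a2 (Entrez 13077, chr9:57676937-57683655), an oxidase with high basal expression in hepatocytes around the central vein, at 534, 566, 473 and 480.3 CPM at 0.1 mg/kg. At 6 mg/kg its lowest level, 557 CPM, lay inside the lower group, while the median was 1044 CPM and the highest 1191 CPM. Its log2 fold change was 0.88 (SE 0.239, edgeR adjusted p = 0.334), and DESeq2 called it with an adjusted p of 0.0294. Vehicle livers held 319.8 to 374 CPM, below all libraries of both doses. Cyp1a1, a classical induced gene of this receptor, was at 0.396 to 1.71 CPM against 0.268 to 5.84 CPM with overlap (log2 fold change 1.28, SE 0.805, edgeR adjusted p = 0.574, and 1.87 on the log2 scale without animal 29).

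Of 33 conjugation enzymes, 1 was higher (Gstt2) and 1 lower (Ugt2a3) at the unadjusted threshold, where 5.54% and 5.15% of all genes were. The offset fit counted 3 higher and 0 lower, beside 4.6% and 3.69% of all genes. Gstt2, a glutathione transferase, had 107, 145, 95.9 and 167 CPM against 119.6 to 266 CPM with a median of 206 CPM (log2 fold change 0.63, SE 0.247, edgeR adjusted p = 0.430). Gstm1 averaged 2104 ± 411 CPM against 1939 ± 712 CPM (SD, n = 4 and 6). Ugt1a1, the enzyme that conjugates bilirubin, ranged from 16.9 to 131 CPM at 0.1 mg/kg and from 8.87 to 185 CPM at 6 mg/kg, a spread within each dose far wider than the difference of the means (55.7 and 58.6 CPM). Its log2 fold change was 0.94 without animal 28 and -0.72 without animal 55. Of 20 NRF2 and small Maf genes, 2 were higher (5.54% of all genes), the sulfiredoxin gene Srxn1 and the small Maf gene Mafk, where the offset fit counted 1. Srxn1 had 25.9, 20.4, 30.0 and 23.1 CPM against 25.5 to 46.6 CPM with a median of 35.7 CPM (log2 fold change 0.53, SE 0.1802, edgeR adjusted p = 0.385). Nqo1 (10.9 ± 4.57 against 9.43 ± 1.93 CPM) and Gclc (190.5 ± 34.2 against 192 ± 38.5 CPM), both textbook NRF2 targets, differed by less than 1 SD (n = 4 and 6).

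Genes of the interferon response did not all lie on 1 side. Of 35 tested, 11 were higher and 0 lower at the unadjusted threshold, beside 5.54% of all genes higher. The median log2 fold change was only 0.13, since 11 members had negative values. Irf7 (Entrez 54123, chr7:141263183-141266499), the regulator that amplifies type I interferon production, had 65.5, 68.3, 54.97 and 48.1 CPM at 0.1 mg/kg. At 6 mg/kg it had 88.8 to 163 CPM with a median of 105.6 CPM, and the groups did not overlap. The log2 fold change was 0.93 (SE 0.209, edgeR adjusted p = 0.272), and DESeq2 called it with an adjusted p of 0.00644. Vehicle libraries were at 46.1 to 57.9 CPM. Ifit1 and Ifit3, antiviral effectors that DESeq2 also called, averaged 13.4 ± 5.75 against 33.2 ± 14.8 CPM and 14.8 ± 1.97 against 26.4 ± 7.18 CPM (SD, n = 4 and 6). The other members higher at the unadjusted threshold were the guanylate binding proteins Gbp3, Gbp6, Gbp10 and Gbp11 with Isg15, Oasl1, Usp18 and Tap1.

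Gbp11 had 4.89, 7.43, 5.05 and 8.15 CPM at 0.1 mg/kg and 5.91 to 31.6 CPM with a median of 14.7 CPM at 6 mg/kg, with overlap (log2 fold change 1.44, SE 0.441, edgeR adjusted p = 0.352). Neighbouring Gbp genes are close in sequence and their counts may be shared. The class I antigen presentation genes H2-K1, H2-D1 and B2m, which belong to the same list, had lower means at 6 mg/kg, for example 2855 and 2104 CPM for B2m. They make up most of the summed level of the list, which was 5786 to 6707 CPM at 0.1 mg/kg and 4739 to 6146 CPM at 6 mg/kg, lower at 6 mg/kg on average. With an index of clock phase (the log2 level of Dbp minus that of Arntl) as a covariate, 6 members in place of 11 were higher, where the share over all genes was 2.45% in place of 5.54%.

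**Figure D4:**
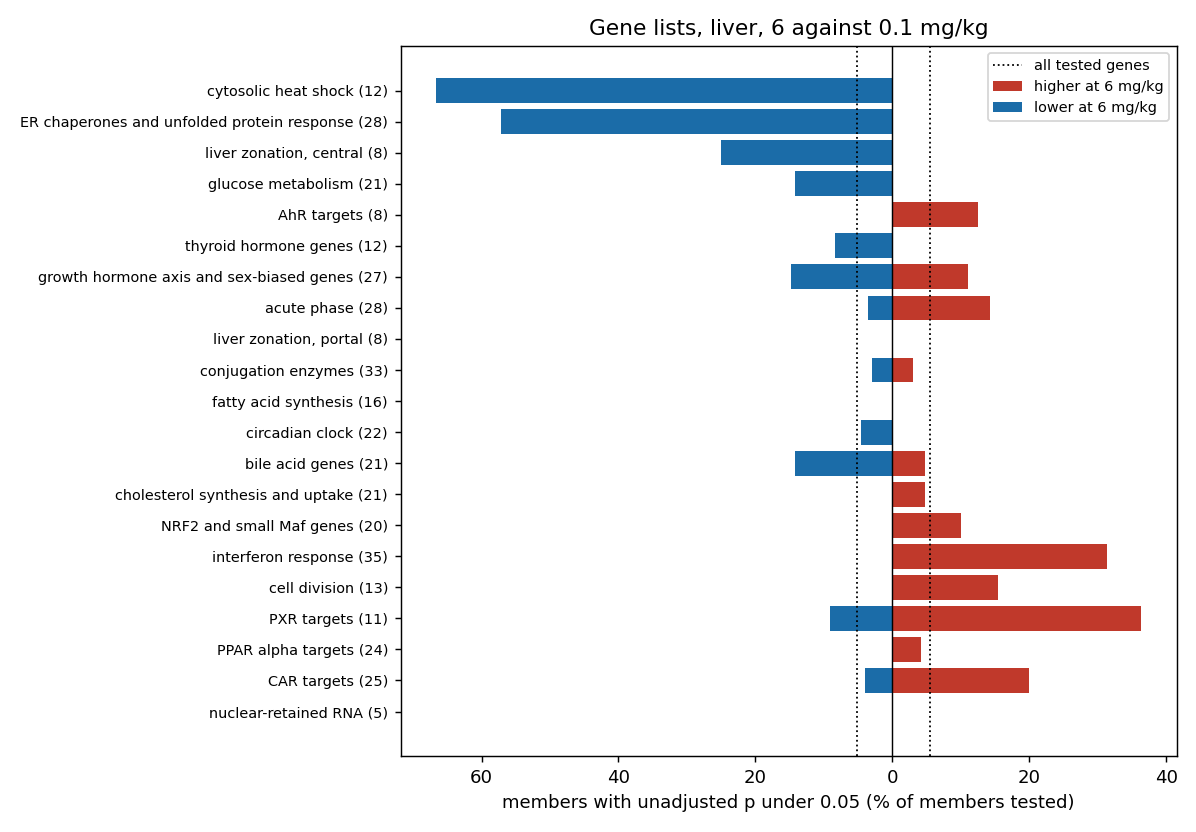
Percent of the tested members of each gene list that were higher or lower at 6 than at 0.1 mg/kg at an unadjusted p of 0.05, with dotted lines at the percent over all 12451 genes tested. The heat shock list (8 of 12 lower), the ER list (16 of 28 lower) and the interferon list (11 of 35 higher) stand farthest from the dotted lines among the lists with at least 12 members. Of the smaller lists, PXR targets had 4 of 11 higher, a larger share than the interferon list, and central zone genes had 2 of 8 lower.

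Among acute phase genes, 4 of 28 were higher and 1 was lower at the unadjusted threshold, beside 5.54% and 5.15% of all genes. The 4 higher were Mt1, Mt2, Lcn2 and Socs3, of which the metallothioneins Mt1 (94.9 and 271 CPM on average) and Mt2 (16.1 and 60.7 CPM) were called by DESeq2. The lower was Apcs, which encodes serum amyloid P, at 205, 172, 158 and 175 CPM against 90.8 to 155 CPM with a median of 115 CPM and no overlap (log2 fold change -0.59, SE 0.170, edgeR adjusted p = 0.342). With the GC and length offset its log2 fold change was -0.34. Saa1, a classical acute phase protein, averaged 25.5 ± 5.88 CPM against 18.3 ± 7.93 CPM (SD, n = 4 and 6).

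PPAR alpha targets had a median log2 fold change of 0.28 with 1 of 24 higher at the unadjusted threshold (5.54% of all genes), the peroxisomal thiolase gene Acaa1b. In the fit with the GC and length offset 4 were higher, beside 4.6% of all genes. Acaa1b had 813, 1168, 1167 and 2356 CPM against 1970 to 2918 CPM with a median of 2294 CPM, and only animal 29 at 0.1 mg/kg reached the other group (log2 fold change 0.80, SE 0.282, edgeR adjusted p = 0.393). The same animal was at 902 CPM for the fatty acid hydroxylase Cyp4a10, where the other 3 at 0.1 mg/kg were at 122 to 203 CPM and those at 6 mg/kg at 343 to 1323 CPM. Without animal 29 the log2 fold change of Cyp4a10 was the highest of those leaving out 1 library, 2.10 in place of 1.03. Cpt1a, the gate of mitochondrial fatty acid entry, averaged 229 ± 59.2 and 224 ± 63.9 CPM (SD, n = 4 and 6).

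Of 21 bile acid genes, 1 was higher and 3 were lower at the unadjusted threshold (5.54% and 5.15% of all genes), and 1 was lower with the GC and length offset. Cyp39a1, an oxysterol hydroxylase, had 30.8, 23.7, 57.8 and 59.1 CPM against 9.25 to 32.7 CPM with a median of 12.0 CPM and overlap (log2 fold change -1.25, SE 0.411, edgeR adjusted p = 0.373). Cyp7a1, the rate-limiting enzyme of bile acid synthesis, averaged 48.8 ± 13.4 CPM against 39.2 ± 32.1 CPM, and Cyp8b1, which sets the cholic acid share, 114 ± 51.1 CPM against 125 ± 81.7 CPM (SD, n = 4 and 6). Cholesterol genes had 1 of 21 higher, near the share over all genes, Hmgcs1, at 574, 405, 356 and 341 CPM against 439 to 729 CPM with a median of 699 CPM (log2 fold change 0.59, SE 0.227, edgeR adjusted p = 0.424). Sqle, which oxidises squalene, averaged 81.8 ± 36.3 and 78.1 ± 52.7 CPM (SD, n = 4 and 6), a difference far inside the spread.

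No fatty acid synthesis gene of 16 reached the unadjusted threshold. Fasn, the fatty acid synthase, ranged from 616 to 4013 CPM within the 0.1 mg/kg group and from 491 to 3921 CPM within the 6 mg/kg group. Its regulator Srebf1 averaged 558 ± 296 and 775 ± 262 CPM, and Dgat2, an enzyme of triglyceride assembly with the smallest p of the list, 910.2 ± 246 and 697 ± 209.9 CPM (SD, n = 4 and 6, log2 fold change -0.38, SE 0.249). Without animal 28, the highest for Dgat2 at 1277 CPM, its log2 fold change was -0.17. Glucose genes had 3 of 21 lower at the unadjusted threshold (5.15% of all genes) and a median of -0.22. Igfbp1, an insulin-repressed binding protein, had 169.9, 16.8, 29.4 and 58.6 CPM against 3.20 to 54.1 CPM with a median of 12.5 CPM (log2 fold change -1.92, SE 0.725, edgeR adjusted p = 0.420). Leaving out 1 library moved this fold change between -2.64, without animal 56, and -0.94, without animal 23. Pck1, the gluconeogenic carboxykinase, had 1107, 1402, 1786 and 1533 CPM against 766 to 1235 CPM with a median of 1067 CPM (log2 fold change -0.49, SE 0.214, edgeR adjusted p = 0.444).

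Clock genes bear on the time of collection. Of 22 tested, 0 were higher and 1 was lower at the unadjusted threshold (5.15% of all genes), or 2 with the GC and length offset (3.69%). The 1 lower was the transcription factor Hlf, at 36.8, 46.9, 61.6 and 72.8 CPM against 25.3 to 47.7 CPM with a median of 37.6 CPM (log2 fold change -0.58, SE 0.213, edgeR adjusted p = 0.411). The core activator Arntl averaged 2.60 ± 1.25 and 1.55 ± 0.813 CPM, the repressor Nr1d1 165 ± 9.62 and 157 ± 40.1 CPM, and the output genes Dbp 282 ± 37.8 and 316 ± 31.8 CPM and Usp2 30.0 ± 14.8 and 21.96 ± 5.99 CPM (SD, n = 4 and 6). The clock index, Dbp minus Arntl, was 6.17 to 7.99 at 0.1 mg/kg and 6.58 to 8.48 at 6 mg/kg, overlapping (exact permutation p = 0.138). With this index as a covariate, edgeR called 1 gene, Hspa1b.

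Slc16a10, which transports aromatic amino acids and thyroid hormone, was the only one of 12 thyroid hormone genes to reach the unadjusted threshold, where 5.15% of all genes were lower. It had 146, 142, 154 and 179 CPM at 0.1 mg/kg and 75.4 to 114 CPM with a median of 94.6 CPM at 6 mg/kg, without overlap (log2 fold change -0.70, SE 0.163, edgeR adjusted p = 0.274). DESeq2 called it with an adjusted p of 0.00644. The receptor Thrb averaged 22.7 ± 3.97 and 18.6 ± 2.86 CPM and the deiodinase Dio1 173 ± 25.6 and 217 ± 38.8 CPM (SD, n = 4 and 6). Of 27 growth hormone and sex-biased genes, 3 were higher (A1bg, Elovl3 and Mup20) and 4 lower (Ghr, Igfbp1 and Cyp3a16 among them) at the unadjusted threshold, beside 5.54% and 5.15% of all genes. The summed level of the list was 7420.1 to 9231 CPM at 0.1 mg/kg and 6046 to 7824 CPM at 6 mg/kg, overlapping and lower on average at 6 mg/kg. Ghr, the growth hormone receptor, averaged 419 ± 34.0 CPM against 296 ± 76.4 CPM (SD, n = 4 and 6) and was the lower member without overlap. A1bg, a plasma protein gene with female-biased liver expression, had 37.5, 67.3, 64.2 and 49.3 CPM against 74.8 to 491 CPM with a median of 124 CPM, without overlap (log2 fold change 1.70, SE 0.476, edgeR adjusted p = 0.342, DESeq2 adjusted p = 0.0288). Its highest value, in animal 55, was far above the other 5, and without that animal the log2 fold change was 1.09. Igf1 averaged 598 ± 283 and 707 ± 313 CPM (SD, n = 4 and 6).

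Cell division genes were at low levels in both groups. Mki67, a marker of cycling cells, had 1.33, 0.524, 1.68 and 0.603 CPM against 1.27 to 4.86 CPM with a median of 2.36 CPM (log2 fold change 1.39, SE 0.494, edgeR adjusted p = 0.398). Cdk1, the mitotic kinase, had 0.556, 0.105, 0.594 and 0.201 CPM against 0.678 to 1.73 CPM with a median of 1.11 CPM, without overlap (log2 fold change 1.70, SE 0.544, edgeR adjusted p = 0.358). These 2 were the members of 13 tested that reached the unadjusted threshold (5.54% of all genes higher), and each rests on a few counts per library at 0.1 mg/kg.

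Genes of the central zone of the lobule had fitted fold changes below 0 in 7 of 8, with 2 lower at the unadjusted threshold (5.15% of all genes), Oat and Slc1a2. Slc1a2, a glutamate transporter, had 169, 141, 210.3 and 229 CPM against 75.7 to 129 CPM with a median of 115 CPM and no overlap (log2 fold change -0.82, SE 0.198, edgeR adjusted p = 0.319, DESeq2 adjusted p = 0.0233). Glul, glutamine synthetase, averaged 1199 ± 229 and 888 ± 251 CPM. Of 8 portal genes, 0 reached the threshold. Cps1, the first enzyme of the urea cycle, averaged 1941 ± 722 and 1005 ± 597 CPM, and Hal, histidase, 295 ± 82.5 and 304 ± 110.3 CPM (SD, n = 4 and 6). Malat1, a nuclear-retained RNA, averaged 195 ± 47.2 and 262 ± 56.6 CPM, and none of the 5 RNAs of its kind reached the threshold.

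The remaining genes with the smallest p belong to no list. Higher at 6 mg/kg was Fyb2 (Entrez 242594), an adaptor protein gene that the 20-library edgeR fit called with an adjusted p of 0.0395, at 4.78, 1.47, 1.49 and 1.61 CPM against 6.22 to 8.67 CPM with a median of 7.39 CPM. Its groups did not overlap (log2 fold change 1.70, SE 0.348, edgeR adjusted p = 0.262, and 2.30 on the log2 scale without animal 23), but the vehicle libraries, at 3.04 to 5.95 CPM, were above 3 of the 4 libraries at 0.1 mg/kg and below all 6 at 6 mg/kg. Scmh1, a Polycomb group gene, had 4.89, 3.98, 6.04 and 5.83 CPM against 9.11 to 12.9 CPM with a median of 11.2 CPM (log2 fold change 1.08, SE 0.201, edgeR adjusted p = 0.252). DESeq2 called Fyb2 and Scmh1, both with an adjusted p of 0.00112. Ly6d, a surface antigen gene, Cabin1, a calcineurin inhibitor, Slc52a2, a riboflavin transporter, and Arsg, a lysosomal sulfatase, also had no overlap. Their means at 0.1 and 6 mg/kg were 0.898 and 4.35 CPM for Ly6d, 10.5 and 23.003 CPM for Cabin1, 8.11 and 14.8 CPM for Slc52a2, and 6.96 and 15.2 CPM for Arsg, and DESeq2 called all 4 with adjusted p-values of 0.00112 to 0.00314. Arsg stood at 15.0 to 17.8 CPM in vehicle livers, as at 6 mg/kg.

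Lower at 6 mg/kg were Slc5a3, a myo-inositol transporter, Hipk3, a kinase, and Cfhr2, a complement factor H related protein gene. Slc5a3 had 4.67, 6.39, 8.42 and 11.4 CPM against 1.34 to 3.62 CPM with a median of 2.12 CPM (log2 fold change -1.79, SE 0.342, edgeR adjusted p = 0.262). Hipk3 had 62.8, 68.0, 72.0 and 81.8 CPM against 37.3 to 48.1 CPM with a median of 43.3 CPM (log2 fold change -0.72, SE 0.139, edgeR adjusted p = 0.262). Cfhr2 had 596, 705, 549 and 560.1 CPM against 258 to 387 CPM with a median of 334 CPM (log2 fold change -0.85, SE 0.174, edgeR adjusted p = 0.262). None of the 3 overlapped between the doses, and DESeq2 called them with adjusted p-values of 0.00145, 0.00072 and 0.000204 in that order.

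The same doses were compared in the 2 brain regions of the series to see where liver differed, by an interaction of dose and tissue in 1 edgeR fit per pair of tissues. No gene passed, at 0 of 14361 (0.0%) for liver against prefrontal cortex and 0 of 14505 (0.0%) for liver against striatum. At an unadjusted p of 0.05, the fold change was higher in liver than in prefrontal cortex for 1003 genes (6.98%) and lower for 846 (5.89%), and higher than in striatum for 732 (5.05%) and lower for 668 (4.61%). DESeq2 called 180 and 41 genes. In edgeR, Scmh1 and Sec23b had the smallest p against prefrontal cortex, with interactions of 1.03 (SE 0.184, adjusted p = 0.0673) and -1.03 (SE 0.186, adjusted p = 0.0673). Scmh1 averaged 43.8 and 44.99 CPM in prefrontal cortex at 0.1 and 6 mg/kg. Against striatum the smallest p belonged to Enho, which encodes the secreted peptide adropin, and to the pseudogene Pisd-ps2, with interactions of -1.57 (SE 0.295, adjusted p = 0.233) and -3.17 (SE 0.616, adjusted p = 0.233). Enho averaged 42.1 and 18.4 CPM in liver and 60.3 and 77.8 CPM in striatum.

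Heat shock genes also had fitted fold changes below 0 in the brain regions, of smaller size than in liver. Hspa1b was at 38.1 to 51.3 CPM against 18.6 to 29.9 CPM in prefrontal cortex and at 20.2 to 52.7 CPM against 9.77 to 19.1 CPM in striatum, without overlap in either. Its interaction was -2.58 against prefrontal cortex (SE 0.499, edgeR adjusted p = 0.0694) and -2.31 against striatum (SE 0.557, edgeR adjusted p = 0.291). Within prefrontal cortex alone, in a fit that called 0 of 14351 genes (0.0%) and had 4.86% of genes lower at the unadjusted threshold, all 12 had negative fold changes with a median of -0.16, 5 at that threshold. In the striatum fit, which called 668 of 14606 genes (4.57%) and had 11.3% of genes lower at the unadjusted threshold, all 12 were negative with a median of -0.31 and 8 at that threshold. Of these, 5 passed and fell in striatum (Hspa1b, Hsph1, Hspa1a, Hsp90aa1 and Dnaja1), Hspa1b by 1.10 on the log2 scale (edgeR adjusted p = 0.0300). The liver fold change was the lower one for 12 of 12 genes against each region. The interaction reached the unadjusted threshold for 5 of 12 against prefrontal cortex and for 7 of 12 against striatum, all lower in liver, beside 5.89% and 4.61% of all genes in that direction. None passed after adjustment.

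Among ER genes in prefrontal cortex, 22 of 28 were negative, 10 at the unadjusted threshold (4.86% of all genes). In striatum 24 of 29 were negative and 13 were lower at that threshold (11.3% of all genes). There 3 were higher, where 1881 of all 14606 genes were. Of the 29, 4 passed (Hspa5, Dnajc3, Pdia4 and Hspa13), beside 4.57% of all genes. The interaction was lower in liver for 7 of 29 genes against prefrontal cortex and 9 of 29 against striatum at the unadjusted threshold (5.89% and 4.61% of all genes), with medians of -0.40 and -0.43. Liver and brain libraries carry the same animal numbers, so the tissues may come from the same mice, and at 0.1 mg/kg there were 4 liver libraries but 5 per brain region.

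**Figure D5:**
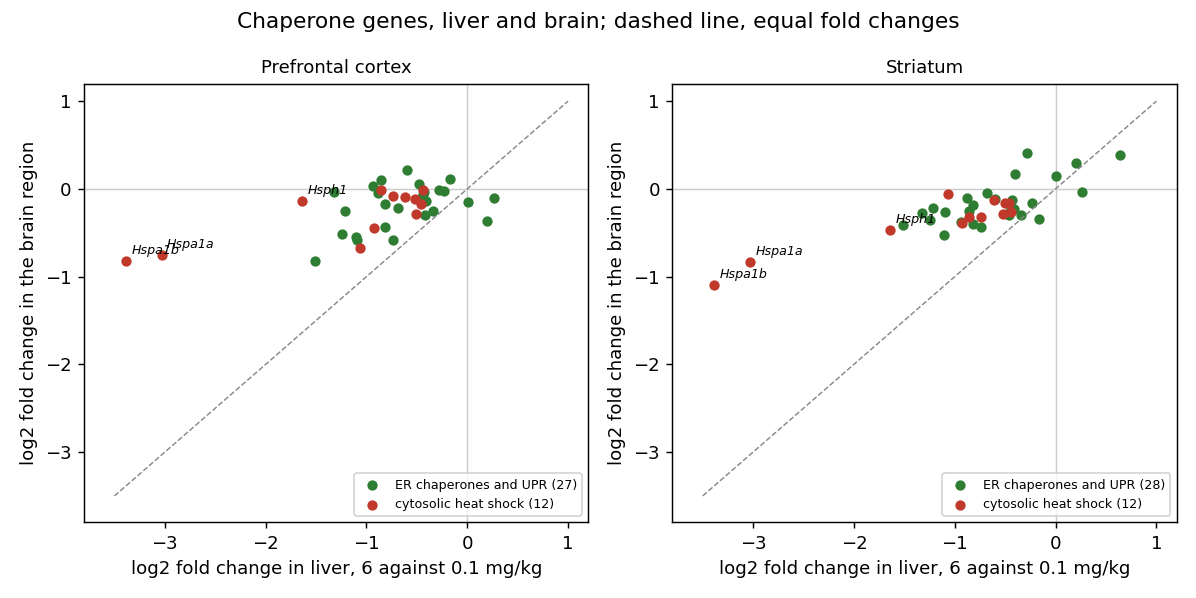
Log2 fold change of 6 against 0.1 mg/kg in liver (horizontal) and in prefrontal cortex or striatum (vertical) for the heat shock and ER genes, with a dashed line where both are equal. All 12 heat shock genes lie below 0 in every tissue and on the side of the line where the liver value is lower, with Hspa1b at -3.39 in liver and -1.10 in striatum.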

How the data were processed

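The authors deposited gene counts, whole numbers of reads per gene that are not normalized, and the 3 tables used here, 1 per tissue, hold the libraries of all doses and vehicle of that tissue. Per the submitters' processing notes, the reads went through FastQC and HISAT2 on mm10. The counting tool, its strand setting and which of poly(A) capture or rRNA removal was used are not given in the sources used here. Per the labels' protocols, RNA was extracted with TRIzol and RNeasy columns, in words that describe brain punches only. The liver table holds 16206 genes with a total count of at least 10, of which 99.95% matched a symbol. The labels do not say that libraries came from separate mice beyond the numbers in their titles, used here as animal numbers. P-values therefore set each difference against the spread between these libraries, which are not stated to be separate mice.

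The 10 liver libraries, with total counts of 7381179 to 10123644, went through edgeR 4.0.16 (R 4.3.3) (TMM scaling, filterByExpr, robust quasi-likelihood test), which left 12451 genes. P-values were adjusted by Benjamini-Hochberg with a threshold of 0.05. SEs were derived from the F statistic, as the size of the log2 fold change over the root of F. Levels are CPM with TMM factors from all 20 liver libraries. Dose by tissue interactions were fitted in the same way with the brain libraries. Other settings were DESeq2 1.42.0, all 20 liver libraries, median-ratio factors, 2 other filters, 1 surrogate variable (sva 3.50.0), a clock covariate, an offset for GC content and length (a spline with 5 degrees of freedom, 96.8% of tested genes) and leaving out each library. Single values were compared by two-sided exact permutation over libraries. Tables, motif search and figures used Python 3.11.15, numpy 2.4.6, pandas 2.3.3, scipy 1.17.1 and matplotlib 3.10.9. Promoter windows came from RefSeq on GRCm38.p6. No library was a repeat of another of its group, since counts differed by a chi-square of at least 12.9 per degree of freedom in every pair.

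The compared groups and the gene lists were chosen with earlier results of these data known. The genes named are the 8 with the smallest p in each direction, the examples marked in each list, the member with the smallest p of each list and, for each interaction, the 2 with the smallest p. Some of them are not reported here. The fitting step was tested on simulated counts.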

Additional observations from a re-analysis of the deposited data

Results flagged for a closer look

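Of 156 sets of libraries checked, 9 had 1 library far from the others of its dose, where chance gives about 1 in 20, or 7.8 sets. At 0.1 mg/kg, animal 28 had 135.7 CPM of Sqle, where the other 3 had 59.6 to 71.5 CPM, and 1277 CPM of Dgat2, where the others had 769.8 to 819.5 CPM. Animal 29 had 902 CPM of Cyp4a10, where the others had 122 to 203 CPM. Animal 23 had 4.78 CPM of Fyb2, where the others had 1.47 to 1.61 CPM, and its red cell markers summed to 472 CPM, where the others were at 44.0 to 76.7 CPM.

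At 6 mg/kg, animal 55 had 31.8 CPM of Hsph1, where the other 5 had 17.1 to 21.4 CPM, and 491 CPM of A1bg, where the others had 74.8 to 145 CPM. Animal 56 had 54.1 CPM of Igfbp1, where the others had 3.20 to 21.2 CPM. Cholangiocyte markers summed to 132 CPM in animal 52, where the others were at 49.0 to 79.7 CPM.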

How the results depend on the processing

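The count of genes passing in liver, 0 in edgeR with 1331 at an unadjusted p of 0.05, was 102 in DESeq2 (1516 unadjusted), 40 with 1 surrogate variable (1835), 5 with all 20 liver libraries (1657) and 1 with the clock covariate (587). It was 0 with no filter, a mean of at least 10 counts, median-ratio factors, the GC and length offset (998) and without animals 52 and 58 (875). Leaving out 1 library gave 0 to 3 genes, 3 without animal 23 and 1 (Fitm1) without animal 55. The interaction with prefrontal cortex gave 0 genes (1849 unadjusted), 180 in DESeq2 and 0 to 2 with 1 animal left out (Hspa1b and Hsph1 without 23, Cabin1 and Dnajb9 without 56). That with striatum gave 0 (1400 unadjusted) and 41 in DESeq2. With animal number as replicate block, 0 genes passed in each (1114 and 909 unadjusted). Same-numbered libraries correlated by -0.112 to 0.113, on both sides of 0, and no label ties them to 1 animal. List counts at the unadjusted threshold were 9 lower in place of 16 for ER genes without animal 28 (9 to 17 over single omissions), 6 higher for interferon genes with the clock covariate, and 8 higher for CAR targets with the surrogate variable, where 6.59% of all genes were higher (3 to 6 over single omissions, 3 without animal 28).

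Of 67 named results, 54 kept their direction in every alternative run and 13 did not, and 28 passed the threshold in some alternative. Log2 fold changes of the 13 were as follows, with single omissions as ranges and the cause not tested. With the surrogate variable they were 0.22 for Sqle, 0.088 for Cpt1a, 0.0078 for Cyp3a11, -0.057 for Gclc and -0.19 for Igf1. Without animals 52 and 58 they were 0.20 for Sqle, 0.10 for Cyp3a11, -0.11 for Gclc, -0.17 for Igf1 and 0.13 for Gstm1. With the GC and length offset they were 0.056 for Cyp3a11 and -0.14 for Fasn. With the clock covariate they were 0.033 for Cpt1a, 0.065 for Cyp3a11, -0.13 for Igf1, -0.075 for Ugt1a1 and 0.10 for Arntl. Single omissions gave -0.45 to 0.30 for Sqle, -0.20 to 0.071 for Cpt1a, -0.19 to 0.057 for Cyp3a11, -0.065 to 0.13 for Gclc, -0.23 to 0.61 for Fasn, -0.72 to 0.94 for Ugt1a1, -0.25 to 0.020 for Gstm1, -0.34 to 0.13 for Nqo1, -0.15 to 0.056 for Nr1d1, -0.14 to 0.24 for Hal and -0.23 to 0.40 for Cyp8b1.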
